A study of Mus musculus with 16 samples.

Results

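The first day of 4-hydroxytamoxifen in skin of K14deltaNB-cateninER mice of line D2 was described here from 5 of the 16 arrays of the study, 3 taken at day 1 and 2 taken at day 0, by the titles of the samples. The other 11 arrays hold transgenic skin at day 7 (3 arrays) and wild-type C57BL/6 skin at days 0, 1 and 7 (3, 3 and 2 arrays). RNA of whole skin was labelled and hybridised to the Affymetrix Mouse Expression Set 430 A array, and all probe sets were used.

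The transgene encodes β-catenin without its N-terminal part, which marks the protein for destruction, and joined to a part of the oestrogen receptor that binds 4-hydroxytamoxifen. The promoter of keratin 14 drives it, and works in the basal keratinocytes of the epidermis and of the outer root sheath of the hair follicle, so most other cells of the skin should not make it. The fusion protein is held inactive until 4-hydroxytamoxifen binds it. Free β-catenin then joins transcription factors of the TCF and LEF family in the nucleus and switches on Wnt target genes. In skin this pathway is known for starting hair follicles and for the hair growth phase. Line D2 is 1 transgenic line, day 0 skin had no drug, and the wild-type mice carried no transgene but were given the same drug. No array of skin given vehicle alone was analysed here, so the drug cannot be told apart from handling or from the passing of time in either genotype. Whether each array came from its own mouse is not stated in the labels, and p-values then measure only the spread between these samples, which may be technical.

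All values below are scaled intensities, linear and in arbitrary units, with every array multiplied by a factor (0.825 to 1.26) that gave all arrays the same trimmed mean. The deposited medians per array lay between 152.7 and 234.6. A change is the day 1 mean minus the day 0 mean of log2(intensity + 32) with its standard error (SE) from limma, and a gene passed the threshold at an adjusted p under 0.05. The added 32 makes the change of a dim gene smaller than the ratio of its intensities. Across genes, which are not independent replicates, arrays of the same group correlated at r = 0.978 to 0.985, and day 1 arrays correlated with day 0 arrays at 0.953 to 0.966. Day 1 replicate 3 had the highest ratio of 3' to 5' signal of the control gene β-actin, 1.87, against 1.36 and 1.46 on the other day 1 arrays and 1.67 and 1.34 at day 0. Precision is limited by having 3 and 2 arrays.

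Esr1, the oestrogen receptor gene, is the check for the transgene, since the fusion carries part of this receptor. Its intensity was 299.6, 159 and 80.7 at day 1, against 408 and 401 at day 0. In wild-type skin it was 36.5, 15.9 and 44.9 at day 1 and 50.0, 23.7 and 13.4 at day 0. All transgenic arrays thus lay above all wild-type arrays of these days, and within transgenic skin the day 1 arrays all lay below the day 0 arrays and differed among themselves, with replicate 3 lowest. The change was -1.18 ± 0.34 in transgenic skin (adjusted p = 0.0391), and this call was lost without either day 0 array and without day 1 replicate 2 or 3 (adjusted p up to 0.187). Krt14, the keratin whose promoter drives the transgene and a marker of basal keratinocytes, was bright on every array, at 7027, 7558 and 7837 at day 1, against 8219 and 8836 at day 0. The day 1 arrays were the lower ones, but the change of -0.19 ± 0.09 did not pass (adjusted p = 0.189). Ctnnb1, which encodes β-catenin itself, stood at 5266, 5239 and 5754 at day 1, against 5804 and 5430.1 at day 0. These groups overlapped (change -0.05 ± 0.08, adjusted p = 0.71).

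Of 9058 genes tested, 978 changed by day 1 (10.8%). There were 600 higher (6.62%) and 378 lower (4.17%), and the median change of all genes was -0.03. With no further scaling of the arrays the median was -0.16 and 186 genes changed. At least 2-fold changes were mostly rises, 130 of them against 20 falls. The groups did not overlap for 41.6% of all genes tested, and they did not overlap for 977 of the 978 that changed. How many genes pass rests on single arrays: limma called 587 without day 0 replicate 1, 233 without day 0 replicate 2, 634 without day 1 replicate 1, 639 without day 1 replicate 2 and 978 without day 1 replicate 3. In the plot of change against level, rises reach further from 0 than falls.

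**Figure D1:**
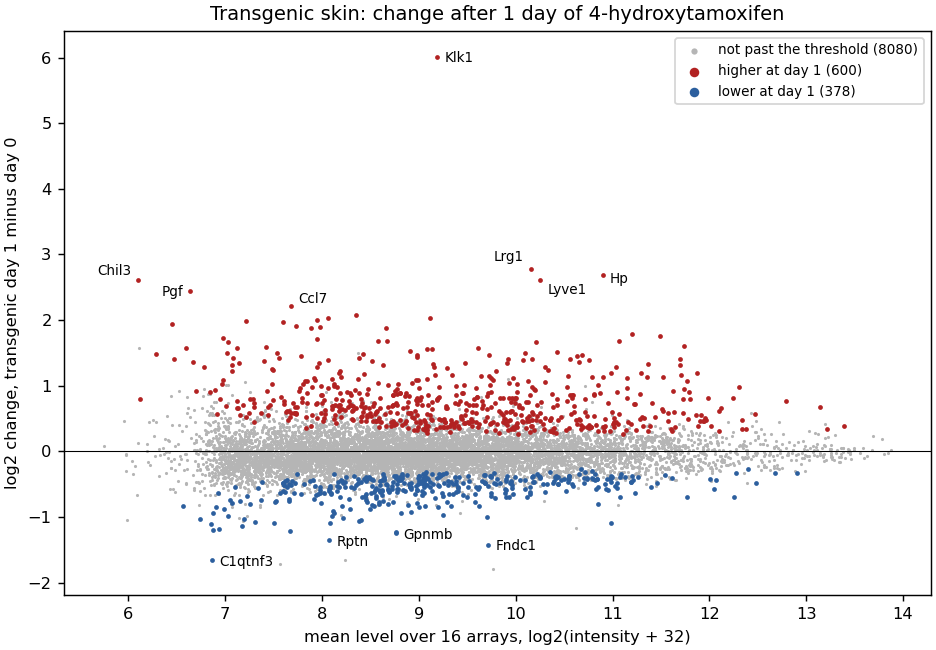
Log2 change from day 0 to day 1 in transgenic skin (vertical axis, day 1 minus day 0) against the mean level over 16 arrays (horizontal axis, log2(intensity + 32)) for 9058 genes. Red points are the 600 genes higher at day 1, blue points the 378 lower, and grey points did not pass. Klk1 stands alone at 6.01, and the lowest point that passed is C1qtnf3 at -1.66.

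The 15 largest rises included genes of the tissue kallikrein family, acute-phase proteins, a chemokine and genes known from macrophages. Klk1, tissue kallikrein, cuts kininogen to release kinins that widen vessels. Its intensity was 1373, 3102 and 2154 at day 1, against 0.990 and 1.03 at day 0, which left it near 0 before the drug and bright on every array after it. The rise was 6.01 ± 0.29 (adjusted p = 1.01e-08), a size that the added 32 sets, since day 0 lay near 0, and that ran over 4.11 to 7.65 between settings. Pgf, Chil3 and Tfec also lay near 0 at day 0, and their sizes likewise ran over 1.24 to 3.50, 1.34 to 3.76 and 0.83 to 3.20. Lrg1 and Hp encode secreted proteins of the acute-phase response, a glycoprotein that acts on vessels and the haemoglobin-binding haptoglobin. Lrg1 read 3234, 2392 and 3271 at day 1, against 399 and 397 at day 0, and the day 1 arrays lay far above both day 0 arrays (2.79 ± 0.33, adjusted p = 0.000112). Hp read 4366, 3683 and 5341 at day 1, against 808 and 540.3 at day 0 (2.68 ± 0.26, adjusted p = 2.76e-05). Pgf, placental growth factor, which binds a receptor for vascular endothelial growth factors, went the same way at 178, 199.7 and 220.4 at day 1, against 10.9 and 9.59 at day 0. Its rise was 2.45 ± 0.27 (adjusted p = 7.22e-05). Prrx2, a homeobox gene of mesenchyme, had 429, 549 and 493 at day 1, against 83.3 and 108 at day 0, with the day 1 arrays close together and the change at 2.03 ± 0.17 (adjusted p = 9.9e-06). Agt, the precursor of angiotensin, had 338, 329.6 and 267 at day 1, against 57.4 and 60.7 at day 0 (1.91 ± 0.20, adjusted p = 4.78e-05). The plot of intensity by array shows these genes beside wild-type skin and day 7.

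**Figure D2:**
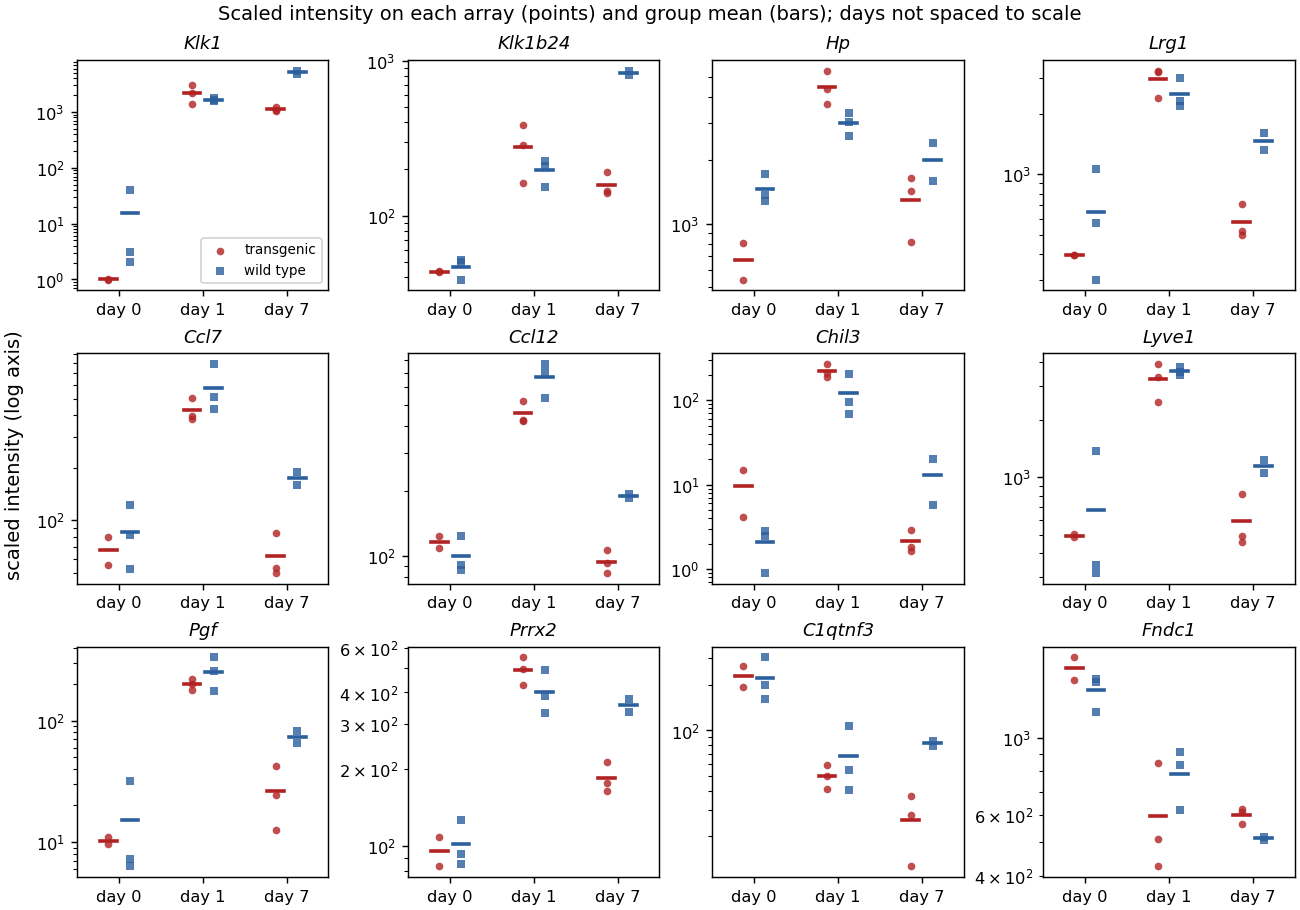
Scaled intensity (log axis) of 12 genes on each array at days 0, 1 and 7, with transgenic skin as circles to the left and wild-type skin as squares to the right at each day. Points are arrays and bars are group means, and the days are not spaced to scale. For the first 10 genes all transgenic day 1 points lie above all transgenic day 0 points, and for C1qtnf3 and Fndc1 they lie below.

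Kallikreins are secreted serine proteases coded by 1 cluster on chromosome 7, and the mouse carries many near copies of Klk1 there. Of 9 tested kallikrein genes, 4 rose (44.4%, against 6.62% of all genes) and 0 fell, and all that rose belong to the Klk1 group. Klk1b24 read 163, 384 and 284 at day 1, against 43.7 and 43.2 at day 0 (1.97 ± 0.24, adjusted p = 0.000137). Klk1b21 read 179, 518 and 313 at day 1, against 42.7 and 66.1 at day 0 (2.00 ± 0.36, adjusted p = 0.00297). Day 1 replicate 2 was the brightest and replicate 1 the dimmest day 1 array for Klk1 and for both of these genes. Klk1b27 read 38.9, 210.2 and 92.6 at day 1, against 25.0 and 9.80 at day 0, again with replicate 2 highest (1.40 ± 0.37, adjusted p = 0.0257). The call of Klk1b27 was lost without either day 0 array and without day 1 replicate 2 (adjusted p up to 0.213). Klk8, a kallikrein of the outer epidermis that does not belong to that group, had a change of -0.27 ± 0.12 (adjusted p = 0.146). The probes of near copies can bind each other's transcripts, so the values of the Klk1 group are uncertain as to which gene they measure.

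The 250 bases before the start of these 4 genes are shown because these are the kallikreins that rose. They were taken from RefSeq on GRCm38.p6, plus strand, at chr7:44225110-44225359 for Klk1, chr7:44102042-44102291 for Klk1b21, chr7:44187986-44188235 for Klk1b24 and chr7:44052040-44052289 for Klk1b27. Capitals mark AGGTCA, the core that many nuclear receptors bind as 1 arm of their site, on either strand (on the other strand it reads TGACCT).
Klk1: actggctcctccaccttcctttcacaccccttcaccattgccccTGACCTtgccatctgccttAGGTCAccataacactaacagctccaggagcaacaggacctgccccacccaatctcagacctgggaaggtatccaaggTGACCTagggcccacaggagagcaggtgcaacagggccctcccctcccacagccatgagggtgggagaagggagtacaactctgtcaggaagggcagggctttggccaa
Klk1b21: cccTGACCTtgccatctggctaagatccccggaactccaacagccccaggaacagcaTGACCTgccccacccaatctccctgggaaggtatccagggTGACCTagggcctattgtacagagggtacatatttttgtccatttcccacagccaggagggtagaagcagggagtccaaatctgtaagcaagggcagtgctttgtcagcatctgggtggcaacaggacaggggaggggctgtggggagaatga
Klk1b24: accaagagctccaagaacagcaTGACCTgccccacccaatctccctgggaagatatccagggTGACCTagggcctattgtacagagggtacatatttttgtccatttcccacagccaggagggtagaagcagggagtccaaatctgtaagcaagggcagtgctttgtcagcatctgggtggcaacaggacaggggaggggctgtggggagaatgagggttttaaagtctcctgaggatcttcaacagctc
Klk1b27: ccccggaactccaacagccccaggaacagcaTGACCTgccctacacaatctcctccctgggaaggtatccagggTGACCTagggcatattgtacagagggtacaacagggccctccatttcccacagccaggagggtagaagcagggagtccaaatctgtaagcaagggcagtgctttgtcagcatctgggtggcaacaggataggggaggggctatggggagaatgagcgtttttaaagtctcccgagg
Klk1b21 and Klk1b24 matched at 210 of 214 aligned bases (98.1%), and Klk1 and Klk1b21 at 161 of 200 (80.5%). AGGTCA lies in 4 of these 4 windows, in 0 of the 5 windows of the tested kallikreins that did not rise, and in 13.8% of the same windows of all 27025 genes with an entry. Over the genes tested here the share was 10.7%, with 13.2% for all genes that rose and 9.62% for those that fell. The 4 copies share their sequence by descent and are not independent cases. The full oestrogen response element GGTCANNNTGACC lies in 0 of the 4, and in 17 (0.0629%) of all windows. A match of letters is a description and shows no binding.

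Several secreted chemokines, among them ones that call monocytes into tissue, rose. Of 13 tested genes of CC chemokines, 5 rose (38.5%, against 6.62% of all genes) and 0 fell, while 6 had a change below 0. The list median of 0.39, against -0.03 over all genes, rests on few genes and ran over 0.06 (without day 1 replicate 1) to 0.93 (without day 1 replicate 3) when 1 array was left out. Ccl7 read 505, 381 and 399 at day 1, against 80.5 and 55.1 at day 0 (2.21 ± 0.26, adjusted p = 0.000105). Ccl2, the main ligand of the monocyte receptor CCR2, read 513, 451 and 351 at day 1, against 103 and 85.6 at day 0 (1.89 ± 0.31, adjusted p = 0.00142). The neighbouring gene Ccl12 was the most even of these, at 519, 422 and 426 at day 1, against 124 and 109 at day 0 (1.71 ± 0.16, adjusted p = 2.21e-05). Ccl9 and Ccl6, which myeloid cells make, were already bright before the drug. Ccl9 had 5261, 5739 and 4964 at day 1, against 1829.8 and 1299 at day 0 (1.76 ± 0.28), and Ccl6 had 5888, 6437 and 5848 at day 1, against 2414 and 1599 at day 0 (1.61 ± 0.34). For all 5 the day 1 arrays lay above the day 0 arrays, and of the 5 Ccl6 alone lost its call when an array was left out (adjusted p = 0.117 without day 0 replicate 2). Of 8 CXC chemokines tested 1 rose (12.5%), Pf4, platelet factor 4, at 1.14 ± 0.21. The call of Pf4 was also lost without day 0 replicate 2 (adjusted p = 0.0629). Ackr1, the vessel receptor that binds and clears chemokines, fell, at 629, 583 and 621 at day 1, against 1012 and 909 at day 0 (-0.62 ± 0.12, adjusted p = 0.004).

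Markers of macrophages, the phagocytes that monocytes become in tissue, rose as a group. Of 35 markers tested, 23 rose (65.7%, against 6.62% of all genes) and 1 fell, with a median change of 0.92. Their summed intensity lay between 63451 and 87063 at day 1, and between 47561 and 53508 at day 0. In whole skin, more cells of a type and more RNA per cell cannot be told apart. Ms4a6d, a membrane protein of macrophages, had 1055, 1090.5 and 1036 at day 1, against 276 and 198 at day 0 (2.04 ± 0.22, adjusted p = 6.03e-05). Msr1, a scavenger receptor, had 454, 572 and 498 at day 1, against 102 and 123 at day 0 (1.90 ± 0.21, adjusted p = 6.79e-05). Cd68, a lysosomal protein of macrophages, had 2429, 2328 and 1472 at day 1, against 872 and 814 at day 0, with replicate 3 the lowest day 1 array (1.24 ± 0.24). The mannose receptor Mrc1 followed at 1.19 ± 0.19 and the calcium-binding protein Aif1 at 1.49 ± 0.18. Chil3, a lectin made by alternatively activated macrophages, was near 0 before the drug, at 269, 208 and 186 at day 1, against 14.9 and 4.12 at day 0 (2.61 ± 0.30, adjusted p = 9.99e-05). Arg1, another gene of such macrophages that keratinocytes also express, was the 1 marker that fell, at 648, 579.8 and 421 at day 1, against 1107 and 1064 at day 0 (-0.96 ± 0.17, adjusted p = 0.00219). The number of markers that rose was 6 without day 0 replicate 2, and without day 1 replicate 3 it was 25.

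Among the largest rises, 3 more genes are known from macrophages. Cd5l, a secreted survival factor of tissue macrophages, had 438, 1107 and 533 at day 1, against 138 and 118 at day 0 (2.07 ± 0.38, adjusted p = 0.00294). Tfec, a transcription factor of the macrophage lineage, had 134, 112 and 81.9 at day 1, against 5.12 and 4.02 at day 0 (1.93 ± 0.26, adjusted p = 0.000298). Lyve1 encodes a hyaluronan receptor of lymphatic vessels and of some tissue macrophages. It read 3907, 3344 and 2477 at day 1, against 502 and 485 at day 0, a rise of 2.61 ± 0.42 (adjusted p = 0.00118). Of 5 tested markers of lymphatic vessels it was the only member to pass.

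The growth factor Csf1, on which macrophages depend, rose too. It read 1939, 2008 and 1925 at day 1, against 828 and 623 at day 0, with the day 1 arrays within a narrow range well above day 0 (1.41 ± 0.17, adjusted p = 0.000121). In the list of cytokines and their receptors 5 of 23 rose (21.7%, against 6.62% of all genes) and 0 fell. The interleukin-1 receptor Il1r1 rose by 0.86, and its decoy Il1r2 by 0.49. The count was 1, Csf1, without day 0 replicate 2, and with no further scaling the list median turned from above to below 0 while the count was 1. Of 16 complement genes tested, 7 rose (43.8%, against 6.62% of all genes) and 0 fell. Cfp, properdin, which stabilises the convertase of the alternative pathway, had 1840.0, 2153 and 1131 at day 1, against 625 and 638 at day 0 (1.34 ± 0.20, adjusted p = 0.000641). The subunits of C1q, which macrophages make, rose by 1.07 (C1qa), 1.14 (C1qb) and 0.92 (C1qc), and they stand in the macrophage list as well. The complement count was 1 without day 1 replicate 1, 2 without day 1 replicate 2 and 2 without either day 0 array, and it was 7 without day 1 replicate 3. The part of macrophage number in the rises of chemokines and complement was not tested.

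Lists of other immune cells were read next. For T cells it was 0 higher and 0 lower of 6 in limma, and the lowest adjusted p was that of Cd247, a chain of the T cell receptor complex, at 0.0588 with a change of -0.56 ± 0.18. For dendritic and Langerhans cells it was 0 and 0 of 8, with the Langerhans cell lectin Cd207 at -0.41 ± 0.39. MHC class II genes, which present antigen, gave 0 and 0 of 6, with H2-Ab1 at 0.36 ± 0.20. Of 6 neutrophil markers 2 rose (33.3%, against 6.62% of all genes), Hp and the deiminase Padi4, while S100a9, which neutrophils carry in bulk, stood at 0.66 ± 0.30 (adjusted p = 0.172). The call of Padi4 was lost without any 1 array but day 1 replicate 3. Of 28 interferon response genes 2 rose and 1 fell, together 10.7% and near the 10.8% of all genes. Among 13 tested acute-phase and related genes 6 rose (46.2%, against 6.62% of all genes) and 0 fell, and 4 to 6 rose without 1 array. Besides Lrg1 and Hp these were the haem oxygenase Hmox1, the metal-binding metallothioneins Mt1 and Mt2, and the protease inhibitor Serpina3n. Hmox1 read 1381, 1764 and 1012 at day 1, against 634 and 580.3 at day 0 (1.12 ± 0.16, adjusted p = 0.000704).

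Genes of dividing cells rose. Of 44 genes of mitosis 20 rose (45.5%, against 6.62% of all genes) and 0 fell, with a median change of 0.54. Of 35 genes of DNA replication 17 rose (48.6%) and 0 fell, with a median of 0.45. Mki67, which marks cycling cells, read 765, 881 and 748 at day 1, against 442 and 424 at day 0 (0.83 ± 0.15, adjusted p = 0.00219). Birc5 and Incenp encode partners in the chromosomal passenger complex, which corrects attachment of chromosomes to the spindle. Birc5 read 366, 424 and 346 at day 1, against 159.8 and 137 at day 0 (1.19 ± 0.17), and Incenp read 551, 651 and 581 at day 1, against 269 and 255 at day 0 (1.09 ± 0.14). The groups did not overlap for either gene, and the day 1 arrays of Incenp stood close together. Ube2c, the ubiquitin carrier that ends mitosis, was more uneven, at 452, 539.9 and 281 at day 1, against 159 and 133 at day 0 (1.32 ± 0.23, adjusted p = 0.00227). Of the helicase that opens replication origins, subunits Mcm2, Mcm3, Mcm4, Mcm5, Mcm6 and Mcm7 all rose, by 0.66, 0.89, 0.55, 0.86, 0.65 and 0.53. Another probe set of Mcm7 went the other way without passing. Mcm3 read 956, 1015 and 882 at day 1, against 538 and 462 at day 0, and its loading factor Cdt1 rose by 0.80. The counts were 5 for mitosis and 6 for replication without day 0 replicate 2. With no further scaling of the arrays they were 4 and 0.

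Genes that hold cells back from division were mixed. Of 15 tested, 1 rose (6.67%, against 6.62% of all genes) and 2 fell (13.3%, against 4.17%). Gadd45g, a stress gene, rose at 789, 667 and 903 at day 1, against 241 and 248 at day 0 (1.55 ± 0.16, adjusted p = 3.76e-05). Cdkn1b, an inhibitor of cyclin-dependent kinases, fell at -0.81 ± 0.17, a call lost without day 0 replicate 2 (adjusted p = 0.145). Gadd45b, of the same family as Gadd45g, fell as well at -0.47, a call lost without any 1 array but day 1 replicate 1 (adjusted p up to 0.283). Other probe sets of Gadd45b changed by -0.09 and -0.14 and did not pass.

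Promoters are shown for 3 of the mitosis genes that rose, those with the smallest p among the 9 whose window holds both of the motifs known from genes of this phase. These are the CCAAT box, bound by NF-Y, and TTTGAA, the core of the cell cycle homology region. The windows, RefSeq on GRCm38.p6, are chr7:135716380-135716629 on the minus strand for Mki67, chr2:164769679-164769928 on the plus strand for Ube2c and chr4:52438971-52439220 on the plus strand for Smc2, a subunit of condensin. Each is written 5′ to 3′ in the gene's direction with both motifs in capitals on either strand (ATTGG and TTCAAA on the other).
Mki67: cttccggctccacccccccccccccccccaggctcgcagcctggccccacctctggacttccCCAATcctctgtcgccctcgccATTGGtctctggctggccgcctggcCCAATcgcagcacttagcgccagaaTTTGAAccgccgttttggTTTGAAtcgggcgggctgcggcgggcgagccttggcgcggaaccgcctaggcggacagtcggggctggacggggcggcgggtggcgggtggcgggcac
Ube2c: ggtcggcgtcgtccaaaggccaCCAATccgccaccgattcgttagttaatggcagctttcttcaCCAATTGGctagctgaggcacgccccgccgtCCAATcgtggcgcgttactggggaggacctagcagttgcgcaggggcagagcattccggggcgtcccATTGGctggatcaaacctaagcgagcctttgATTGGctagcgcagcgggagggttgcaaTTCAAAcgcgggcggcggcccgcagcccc
Smc2: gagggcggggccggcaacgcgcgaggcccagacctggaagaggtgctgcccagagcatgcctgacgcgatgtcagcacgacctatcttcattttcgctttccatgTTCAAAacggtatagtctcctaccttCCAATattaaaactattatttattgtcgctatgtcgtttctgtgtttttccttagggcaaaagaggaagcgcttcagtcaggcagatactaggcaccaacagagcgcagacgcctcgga
A promoter entry was found for 17 of the 20 mitosis genes that rose, and CCAAT lay in 15 of these (88.2%) and TTTGAA in 9 (52.9%). Over the windows of all genes the shares were 34.5% and 16.3%. Among the mitosis genes that did not pass, 15 of 19 windows held CCAAT and 6 of 19 TTTGAA, so the CCAAT box is common in the list as a whole. In the window of Ube2c, matches of CCAAT on opposite strands overlap.

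Genes of the dermal matrix went both ways. Of 20 collagen genes 7 rose (35%, against 6.62% of all genes) and 0 fell. Col5a3, a chain of the fibril-starting collagen V, had 909, 1312 and 1077 at day 1, against 568 and 414 at day 0 (1.11 ± 0.19, adjusted p = 0.00162). Col5a2, of the same collagen, had 3932, 4379 and 4121 at day 1, against 2573 and 2180.3 at day 0 (0.80 ± 0.13, adjusted p = 0.00136), and Col6a3 rose by 0.61. The main dermal collagen Col1a1, bright throughout, rose by 0.34 and was close to the threshold (adjusted p = 0.0497); this call was lost without any 1 of the 5 arrays (adjusted p up to 0.247). Another probe set of Col1a1 went the other way without passing (-0.15). Of 34 other matrix genes 8 rose (23.5%) and 3 fell (8.82%, against 4.17% of all genes). Vcan, the large proteoglycan versican, had 606, 692 and 813 at day 1, against 281 and 235 at day 0 (1.34 ± 0.14, adjusted p = 4.78e-05). Thbs2, thrombospondin 2, had 3493, 3526 and 3365 at day 1, against 940.1 and 1186 at day 0 (1.68 ± 0.20, adjusted p = 0.000105). Its relative Thbs1 went the other way, at 266, 296 and 248 at day 1, against 516 and 467 at day 0 (-0.80 ± 0.12, adjusted p = 0.000863). The metalloprotease gene Adamts1 rose by 1.23 and the collagen cross-linking gene Loxl1 by 0.97. Mmp3, stromelysin 1, fell, at 285, 201 and 259.6 at day 1, against 454 and 648 at day 0 (-1.05 ± 0.16, adjusted p = 0.000988). The collagen count was 2 without day 0 replicate 2, 4 without day 0 replicate 1 and 4 without day 1 replicate 2 or 3, and the matrix count of rises was 4 and 5 without day 0 replicates 2 and 1.

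Among 18 fibroblast markers 4 rose (22.2%, against 6.62% of all genes) and 0 fell, and 2 to 3 rose without 1 array. With no further scaling 1 rose and the list median lay below 0. Pdgfra, the receptor that defines dermal fibroblasts, had 2612, 2463 and 2649 at day 1, against 1339 and 1007 at day 0, with the groups well apart (1.13 ± 0.13, adjusted p = 9.99e-05). The others were S100a4 at 0.81, Thy1 at 0.60 and Col1a1. Of 17 markers of vessel endothelium 2 rose (11.8%) and 1 fell (5.88%, against 4.17% of all genes). Plvap, a protein of the openings of leaky capillaries, had 907, 878 and 700.0 at day 1, against 325 and 237 at day 0 (1.46 ± 0.21, adjusted p = 0.000504). Eng, endoglin, rose by 0.76, and Tek, the angiopoietin receptor, fell (log2 change -0.73). The last pair of calls was lost without day 0 replicate 2 (adjusted p = 0.0944 and 0.0615). Fat cell markers gave 0 higher and 0 lower of 17 in limma, and skeletal muscle markers 0 higher and 2 lower of 26 (7.69%). The muscle genes that fell were Tcap, at -0.70 ± 0.12, and Myoz1, at -0.47 ± 0.13, both of the sarcomere. Without day 0 replicate 2 both calls were lost (adjusted p = 0.0714 and 0.313) and the list median lay at 0.04, against -0.19 with all arrays. The falls numbered 4 without day 0 replicate 1, and Myoz1 was also lost without day 1 replicate 1 or 3.

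Chaperone and stress genes came next. Of 27 tested chaperone and stress genes 6 rose (22.2%, against 6.62% of all genes) and 1 fell (3.7%, against 4.17%), and 20 did not pass. Sdf2l1, a partner of the chaperone BiP, had 556, 499 and 430.5 at day 1, against 262 and 189 at day 0 (1.04 ± 0.17, adjusted p = 0.00141). Hspa5, BiP itself, had 6654, 6178 and 8018 at day 1, against 5462 and 3989 at day 0 (0.56 ± 0.15, adjusted p = 0.0253). Manf, Creld2, Pdia4 and Pdia3, also of the endoplasmic reticulum, made up the rest of the rises. Hspa1b, the inducible cytosolic chaperone of the HSP70 family, had 3916, 3963 and 3087 at day 1, against 5289 and 5513 at day 0 (-0.57 ± 0.12, adjusted p = 0.00907). Without day 0 replicate 2, 1 rise and 0 falls of the list were left. The rises numbered 2 with only the 5 arrays fitted and 1 with no further scaling. Genes that handle alcohols and toxins went both ways, 4 of 35 higher (11.4%) and 5 lower (14.3%). The alcohol dehydrogenases Adh1 and Adh7 rose by 1.19 and 0.69. Cyp2e1, a cytochrome that oxidises small molecules, fell, at 2721, 2280.1 and 1938 at day 1, against 4677 and 5178 at day 0 (-1.09 ± 0.24, adjusted p = 0.00838). The falls of that list numbered 0 without day 0 replicate 2.

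**Figure D3:**
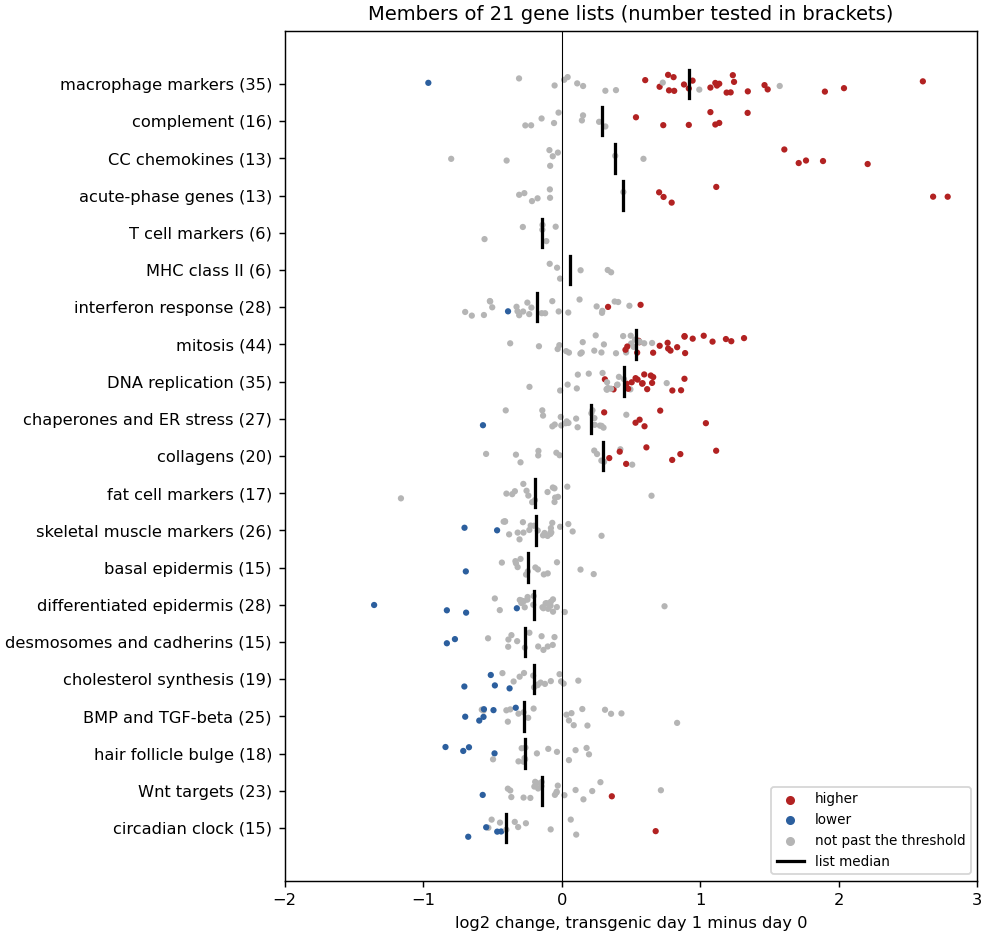
Log2 change from day 0 to day 1 in transgenic skin (horizontal axis, day 1 minus day 0) of each tested member of 21 gene lists, with the number tested in brackets. Red and blue points passed as higher and lower, grey points did not pass, and the black bar is the list median. The macrophage median lies at 0.92 and the mitosis median at 0.54, while the circadian clock median lies at -0.40. The kallikrein list, with Klk1 at 6.01, is not drawn.

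The largest falls were smaller than the largest rises and came from several tissues of the skin. C1qtnf3, a secreted hormone-like protein, had 41.1, 59.4 and 50.1 at day 1, against 192 and 265 at day 0 (-1.66 ± 0.28, adjusted p = 0.00175). Fndc1, a secreted protein with fibronectin repeats, had 845, 425 and 512 at day 1, against 1708 and 1468 at day 0 (-1.42 ± 0.21, adjusted p = 0.000698). Both had day 1 arrays clear of the day 0 arrays. Ccn3, a matricellular protein, had 135, 155 and 157 at day 1, against 392 and 383 at day 0, with the 2 groups each in a narrow range (-1.21 ± 0.21, adjusted p = 0.00197). Omd, osteomodulin, a small proteoglycan that binds collagen, had 78.5, 68.9 and 87.8 at day 1, against 225 and 176 at day 0 (-1.07 ± 0.20, adjusted p = 0.00297). Gpnmb, a glycoprotein of melanosomes and macrophages, had 177, 212 and 150.4 at day 1, against 377 and 579 at day 0, so it moved against the macrophage markers (-1.25 ± 0.26, adjusted p = 0.00712). Cartpt, a neuropeptide precursor, was dim at day 1, at 72.4, 70.4 and 51.9, against 195 and 182 at day 0 (-1.19 ± 0.21, adjusted p = 0.00208). Further falls among the 15 largest were Acaa1b (-1.23), a peroxisomal thiolase, Aldh1a3 (-1.13), which makes retinoic acid, Gstt2 (-1.10), a glutathione transferase, Chac1 (-1.09), which breaks down glutathione, and Ces1f (-1.11), a carboxylesterase. The calls of these 5 were lost without either day 0 array (adjusted p up to 0.183), those of Gpnmb and Cyp2e1 without day 0 replicate 2 (adjusted p = 0.127 and 0.0961).

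Most of the epidermal genes that passed were lower. Of 28 genes of the differentiated epidermis 0 rose and 4 fell (14.3%, against 4.17% of all genes), and 26 had a change below 0 (median -0.20). Rptn, repetin of the cornified envelope, had 168, 135 and 80.7 at day 1, against 394 and 339 at day 0, with replicate 3 lowest (-1.35 ± 0.29, adjusted p = 0.00808). Dsc1, a desmosomal cadherin of the upper layers, had 551, 647 and 529 at day 1, against 886 and 1228 at day 0 (-0.83 ± 0.15, adjusted p = 0.00297). The envelope precursor Sprr1a and the protease Asprv1 fell too, with log2 changes of -0.69 and -0.32. Desmosomal and cadherin genes were below 0 for 15 of 15, with 2 past the threshold, Dsc1 and Dsg2 (13.3%). They lost their calls without day 0 replicate 2 (Dsc1) and without day 0 replicate 1 (Dsg2). Other probe sets of Dsg2 changed by -0.30, -0.21 and -0.30 and did not pass. Of 15 basal genes 1 fell (6.67%, against 4.17% of all genes), Itga6, the integrin chain that anchors basal cells (-0.69 ± 0.15, adjusted p = 0.01). Another probe set of Itga6 changed by -0.26 and did not pass. Keratins and other genes of wounded skin gave 1 higher and 1 lower of 17, together 11.8% and near the 10.8% of all genes. The rise was that of Krt6b, at 191, 339.7 and 141 at day 1, against 71.1 and 60.2 at day 0 (1.32 ± 0.40, adjusted p = 0.0479). Among differentiated epidermis genes 1 fell without day 0 replicate 1. Without day 0 replicate 2 the counts of falls were 0 for these and 0 for basal genes, and Krt6b was lost without any array but day 1 replicate 3 (adjusted p up to 0.241).

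Some genes of the hair follicle bulge, where its stem cells rest, fell. Of 18 tested 4 fell (22.2%, against 4.17% of all genes) and 0 rose, with a median of -0.27. Lhx2, a transcription factor of these stem cells, had 368, 435 and 415 at day 1, against 633 and 886 at day 0 (-0.84 ± 0.14, adjusted p = 0.00136). Sox9, which bulge cells need, had 269.7, 299.9 and 240.2 at day 1, against 426 and 497 at day 0 (-0.71 ± 0.18, adjusted p = 0.0184). Tcf7l1, a repressor that binds β-catenin, had 289, 266 and 285 at day 1, against 462 and 466 at day 0 (-0.67 ± 0.19, adjusted p = 0.0366). The call of Tcf7l1 was lost without any 1 of the 5 arrays (adjusted p up to 0.186). Another probe set of Tcf7l1 changed by -0.25 and did not pass. The fourth gene that fell was Gas1, a Hedgehog co-receptor, at -0.48 ± 0.13. Without day 0 replicate 2 the count was 1, Lhx2, and without day 1 replicate 1 it was 2. Structural genes of the hair shaft and root sheath gave 0 higher and 0 lower of 25 in limma at day 1, and their mean level stood at 6.24 to 6.36 on the day 1 arrays and at 6.32 and 6.50 on the day 0 arrays.

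In the pathway that the transgene feeds, the share of genes past the threshold in either direction was near that of all genes. It was 8.7% of Wnt targets and 11.1% of Wnt ligands, receptors and inhibitors, against 10.8%. Of 23 genes known as Wnt targets 1 rose, Ccnd1, and 1 fell, Apcdd1. Ccnd1, cyclin D1, which drives entry into the cell cycle, had 2005, 1878 and 1625 at day 1, against 1365 and 1469.8 at day 0 (0.36 ± 0.09, adjusted p = 0.0247). Further probe sets of Ccnd1 changed by 0.69 and 0.31 and did not pass. Apcdd1, an inhibitor of Wnt signals, had 1520.2, 1442 and 1225 at day 1, against 1994 and 2167 at day 0 (-0.57 ± 0.11, adjusted p = 0.00394). A further probe set of Apcdd1 changed by -0.44 and passed, and others, at -0.06 and -0.33, did not. Axin2, the feedback inhibitor most used as a readout of the pathway, had 689.8, 660.2 and 814 at day 1, against 750.1 and 725 at day 0, and these groups overlapped (-0.04 ± 0.10, adjusted p = 0.86). A p that misses the threshold does not show that the gene stayed level. Of 27 Wnt ligands, receptors and inhibitors 3 fell (11.1%, against 4.17% of all genes) and 0 rose, and 22 had a change below 0. The secreted inhibitors Sfrp2 and Dkk2 had log2 changes of -1.06 and -0.65, and the receptor Fzd7 one of -0.54. Sfrp2 read 389, 438 and 243 at day 1, against 895 and 642 at day 0 (adjusted p = 0.0193). Without day 0 replicate 2, 0 of these 3 falls and 0 calls among the Wnt targets were left.

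In neighbouring pathways of hair growth the calls were falls. Of 7 Hedgehog genes 2 fell (28.6%, against 4.17% of all genes), the co-receptors Gas1 and Boc. A further probe set of Boc changed by -0.13 and did not pass. The falls numbered 0 without either day 0 array, without day 1 replicate 2, with no further scaling and with only the 5 arrays fitted. The target genes Ptch1, at 413, 405 and 533 at day 1, against 487 and 530.3 at day 0 (-0.17 ± 0.15, adjusted p = 0.483), and Gli1, at 125, 135 and 157 at day 1, against 83.7 and 133 at day 0 (0.30 ± 0.17, adjusted p = 0.277), had groups that overlapped. Of 25 genes of BMP and TGF-β signalling 6 fell (24%) and 0 rose, with a median of -0.27. They included the receptor Bmpr1a (-0.56, adjusted p = 0.00611), the ligands Tgfb2 (-0.70, adjusted p = 0.00868), Bmp6 and Bmp7, and Id4, a target that blocks differentiation factors. Another probe set of Bmp7 went the other way without passing (0.14). A further probe set of Bmpr1a changed by -0.51 and passed, and others, at -0.20, -0.26 and -0.15, did not. Those of Tgfb2 changed by -0.21 and -0.65 and did not pass. The count was 0 without day 0 replicate 2 and at most 4 without any other array. Among growth factor genes, Errfi1, which inhibits the receptor of epidermal growth factor, rose, at 3115, 2459 and 3637 at day 1, against 1288 and 1049.6 at day 0 (1.36 ± 0.22, adjusted p = 0.00118), and it kept its call under every setting tried. Erbb3, a receptor of that family, fell (log2 change -0.40). Igf1, a growth factor, rose by 0.91. The calls of Erbb3 and Igf1 were lost without day 0 replicate 2 (adjusted p = 0.0924 and 0.116).

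Some clock genes changed as well. Of 15 tested 4 fell (26.7%, against 4.17% of all genes) and 1 rose (6.67%, against 6.62%), with a median of -0.40. Dbp, an output gene of the clock, had 909, 1175 and 772 at day 1, against 1776 and 1294 at day 0 (-0.67 ± 0.20, adjusted p = 0.0444). Hlf, of the same family, had 490.2, 441 and 468 at day 1, against 671 and 719 at day 0 (-0.54 ± 0.13, adjusted p = 0.0131), and Per3 and Rora fell with log2 changes of -0.44 and -0.47. Nfil3, a repressor that opposes Dbp at its sites, was the 1 gene that rose, at 161, 107 and 205 at day 1, against 69.1 and 100.3 at day 0 (0.68 ± 0.20, adjusted p = 0.0386). Without day 0 replicate 2, 0 of the falls and 0 of the rise were left, and without day 1 replicate 3 the falls numbered 1. The labels used here give no time of day, and its part in these values was not tested.

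Immediate early genes and genes of cholesterol synthesis that passed were lower. Of 27 immediate early genes 0 rose and 4 fell (14.8%, against 4.17% of all genes). Klf6 had a log2 change of -0.46 (adjusted p = 0.00402), Ier3 one of -0.57 and Fosl1, a partner of JUN, one of -0.64. Further probe sets of Klf6 changed by -0.33 and -0.35 and did not pass. Of 19 genes of cholesterol synthesis 4 fell (21.1%), the enzymes Fdft1, Sc5d and Nsdhl and the carrier Stard4, with log2 changes of -0.48, -0.70, -0.38 and -0.51. Respiratory chain genes gave 0 higher and 0 lower of 51 in limma. Leaving out day 0 replicate 2 left 1 fall for the early genes and 1 for cholesterol synthesis, and at most 3 of either list fell without any other array.

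Wild-type skin given the same drug was compared to see which of these changes were also found without the transgene. There 2029 genes changed (22.4%), with 912 higher (10.1%) and 1117 lower (12.3%) at day 1 than at day 0. Of these calls 44.9% were rises, and 82.2% were with no further scaling of the arrays. The comparisons share no array, but both use the same estimate of each gene's spread, from all 16 arrays. Their calls are therefore not independent, and the overlap is a description. Among the transgenic rises, 372 were rises in wild-type skin too, which is 62% of the transgenic list and 40.8% of the wild-type list. Of those that fell, 173 were shared, 45.8% and 15.5% of the lists. Only 7 genes passed in opposite directions. Klk1 read 1634, 1763 and 1571 at day 1 and 2.02, 3.04 and 40.9 at day 0 in wild-type skin, near 0 on 2 of the 3 day 0 arrays there too, so the sizes of the rises were not set against each other. The macrophage list gave 28 higher of 35 in wild-type skin (median 1.06), mitosis 23 of 44 (0.52) and DNA replication 8 of 35 (0.22). Differentiated epidermis gave 13 lower of 28 there (-0.32). In each of these lists 0 genes differed between the genotypes in limma, and mitosis had Mki67 at 0.49 ± 0.19 (adjusted p = 0.261).

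The test of the genotypes against each other, the change in transgenic skin minus that in wild-type skin, passed for 26 genes (0.287%), 10 higher and 16 lower. The share above 0 was 38.5%, against 50% after quantile normalization and 14.3% with no further scaling. At an unadjusted p under 0.05 there were 1382. Cdr2l was the largest rise of transgenic skin in this group, at 287, 213 and 229 at day 1, against 37.6 and 37.0 at day 0, whereas wild-type skin had 217, 150.1 and 118 at day 1 and 91.7, 139 and 131 at day 0. The difference was 1.65 ± 0.27 (adjusted p = 0.0289), and before the drug the transgenic arrays were the dimmer ones. Gm13889 had 121, 94.5 and 134 at day 1, against 14.4 and 27.7 at day 0, and in wild-type skin 37.8, 18.8 and 30.0 at day 1 and 20.8, 32.1 and 35.0 at day 0. All transgenic day 1 arrays lay above all the others, and the wild-type change was -0.01 (difference 1.50 ± 0.29, adjusted p = 0.0426). Mt2, a metallothionein that glucocorticoids and metals induce, had 3889.6, 3732 and 6041 at day 1, against 2558 and 2541 at day 0, and in wild-type skin 2182, 2114 and 2110.3 at day 1 and 2320.0, 2638 and 2849.6 at day 0. Here every transgenic day 1 array stood above the rest (difference 1.07 ± 0.20, adjusted p = 0.0379). Prrc2a had 1829, 2158 and 1712 at day 1, against 978 and 1071 at day 0, against a wild-type change of -0.15 (difference 1.01 ± 0.18, adjusted p = 0.0334).

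In 4 other genes wild-type skin fell. Tnfrsf12a, the receptor of the cytokine TWEAK, had 338, 436 and 459 at day 1, against 258 and 329 at day 0, and in wild-type skin 78.3, 55.6 and 55.3 at day 1 and 190.1, 171 and 291 at day 0. The transgenic change of 0.44 ± 0.25 did not pass, and the wild-type one of -1.37 ± 0.23 did (adjusted p = 0.276 and 0.000989). Msmo1, of cholesterol synthesis, was of this kind, with a transgenic change of -0.08 and a wild-type change of -1.08. Bcl2l1, which protects cells from death, and Dtx2, of the Notch pathway, had 0.47 and 0.28 in transgenic skin, against -0.56 and -0.54 in wild-type skin. Of this pair Bcl2l1 also passed in transgenic skin, as a rise (adjusted p = 0.0438), and this call was lost without any 1 array but day 1 replicate 1 (adjusted p up to 0.204). Another probe set of Bcl2l1 changed by -0.04 in transgenic skin and averaged 182 at day 1 and 140.0 at day 0 in wild-type skin, against the direction above. Other probe sets of Tnfrsf12a and Dtx2 fell less in wild-type skin. They averaged 144 and 293 at day 1 there, against 163 and 314 at day 0. In transgenic skin they changed by 0.18 and 0.16 and did not pass.

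Among the differences below 0, Thbs1 fell in transgenic skin by the values above, while wild-type skin had 522, 544 and 484 at day 1 and 351, 419 and 450.1 at day 0 (difference -1.12 ± 0.16, adjusted p = 0.0188). Sema3c, a guidance signal for cells and vessels, had 261, 259 and 248 at day 1, against 441 and 512 at day 0, against a wild-type change of 0.32 (difference -1.14 ± 0.19, adjusted p = 0.0289). Kdm7a, a histone demethylase, had 119, 124 and 106 at day 1, against 195 and 167 at day 0, and in wild-type skin 202, 201 and 216 at day 1 and 105, 86.7 and 108 at day 0. It went down in transgenic skin and up in wild-type skin (difference -1.37 ± 0.19, adjusted p = 0.0173). Wdfy3, a scaffold of autophagy, Ugcg, which makes glucosylceramide, Myhas, Necab2 and 6820431F20Rik followed the same pattern, with transgenic changes of -0.78, -0.47, -0.61, -0.41 and -0.83 and wild-type changes of 0.82, 0.74, 0.59, 0.65 and 0.84. Of these, the transgenic changes of Ugcg and Necab2 did not pass (adjusted p = 0.0557 and 0.0921), and those of Kdm7a, Wdfy3, Myhas and 6820431F20Rik lost their calls without day 0 replicate 2 (adjusted p up to 0.39 without any 1 array). Other probe sets of Ugcg did not all share its wild-type rise. They averaged 505 and 404 at day 1, against 459 and 572 at day 0 in wild-type skin. The count of 26 is the least stable one here: limma called 0 without transgenic day 0 replicate 2, without transgenic day 1 replicate 1 or without wild-type day 0 replicate 2, and 15 at most without any other array of the 4 groups.

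**Figure D4:**
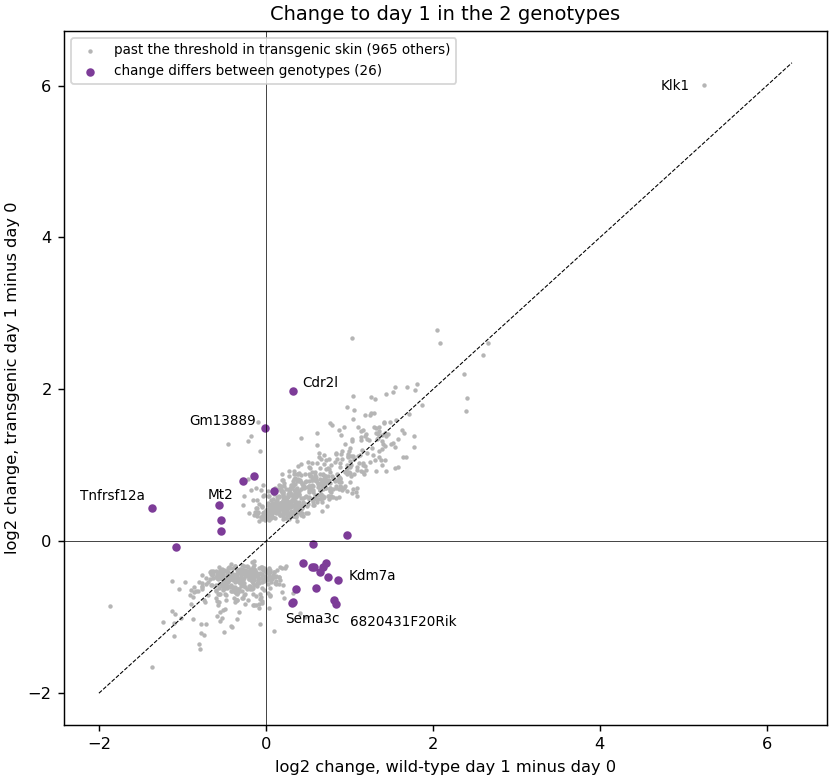
Log2 change from day 0 to day 1 in transgenic skin (vertical axis) against that in wild-type skin (horizontal axis). Purple points are the 26 genes whose change differed between the genotypes, grey points the other 965 genes that passed in transgenic skin, and the dashed line marks equal change. Cdr2l, with a transgenic change of 1.98 and a wild-type change of 0.33, lies far above that line.

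Genes that glucocorticoids induce gave 4 higher (21.1%, against 6.62% of all genes) and 0 lower of 19 in transgenic skin. In wild-type skin they gave 0 higher and 5 lower, where 12.3% of all genes were lower. Those that rose in transgenic skin were Errfi1, Mt1, Mt2 and the transcription factor Cebpd (0.81 ± 0.19). The rises numbered 3 to 5 without 1 array and 1 with no further scaling. Cebpd lost its call without day 0 replicate 2 (adjusted p = 0.237), and another probe set of Cebpd changed by 0.13 without passing. Tsc22d3, which blocks inflammatory signals, had 3563, 2736 and 4504 at day 1, against 2523 and 2891 at day 0, and in wild-type skin 1749, 1589 and 1658 at day 1 and 2385, 2506 and 3088 at day 0. Its change did not pass in transgenic skin (0.38 ± 0.16), and the difference between genotypes was 1.04 ± 0.21 (adjusted p = 0.0529). Fkbp5, a partner of the receptor, stood at 0.48 ± 0.19 (difference 0.78 ± 0.25, adjusted p = 0.182). Of this list, 1 gene passed the test between genotypes, Mt2.

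Day 1 in transgenic skin was set against day 7 to see how long the first changes lasted. At day 7, 1947 genes were higher and 2061 lower than at day 1 (44.2% in all). The macrophage list fell back, with 25 of 35 lower at day 7 and 0 higher. Csf1 was 434, 467 and 692 at day 7, within or below its day 0 range, and Ccl7 was 49.7, 53.2 and 84.6. Klk1 stayed high, at 1213, 1101 and 1055 (-0.88 ± 0.26, adjusted p = 0.0128). Mitosis genes rose further, 41 of 44, with Mki67 at 2289, 2132 and 2062. The hair shaft and root sheath genes, of which 0 had passed at day 1, were higher at day 7 for 24 of 25. Ptch1 was 3209, 3427 and 2806 and Gli1 909.7, 997 and 889.6 at day 7. Lhx2, lower at day 1, was 1454, 1241 and 1254 at day 7. Since this comparison and that of day 1 with day 0 share the day 1 arrays, their changes were not correlated with each other.

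**Figure D5:**
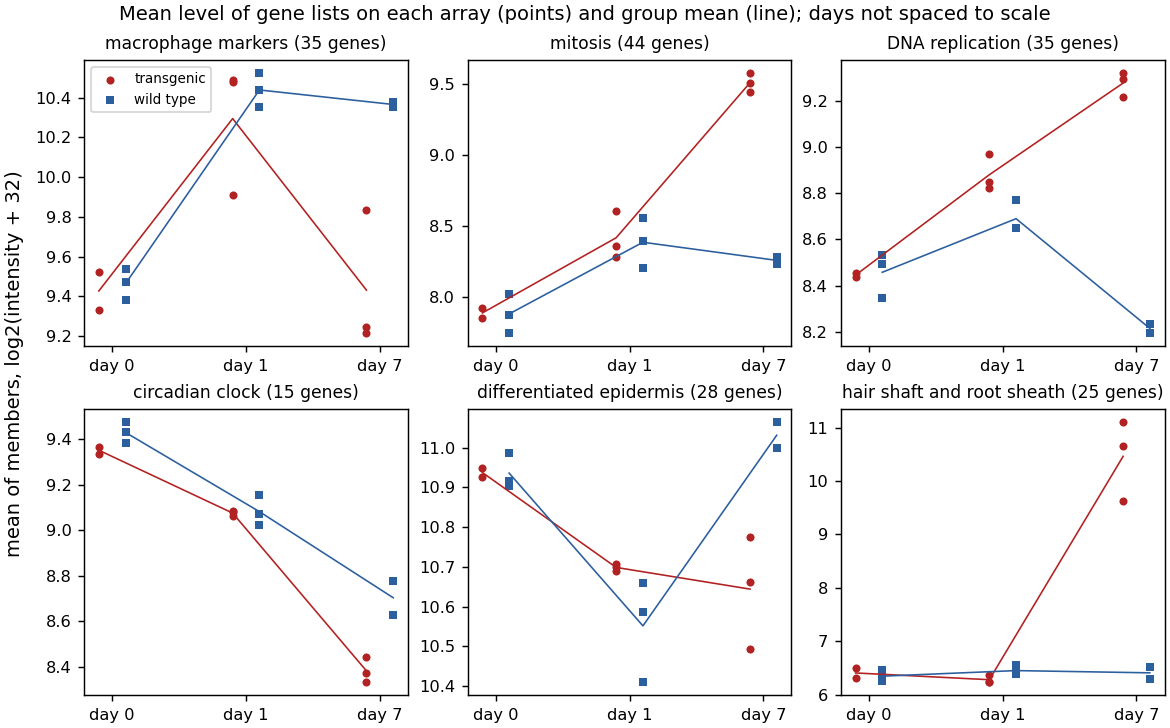
Mean level of the tested members of 6 gene lists (vertical axis, log2(intensity + 32)) on each array at days 0, 1 and 7, with transgenic skin as red circles and wild-type skin as blue squares. Points are arrays, lines join group means, the vertical axes do not start at 0 and the days are not spaced to scale. In transgenic skin the macrophage mean lies at 9.91 to 10.49 at day 1 against 9.33 and 9.52 at day 0, and the hair shaft mean reaches 9.63 to 11.10 at day 7.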

How the data were processed

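RNA of whole skin was measured on 16 arrays, 1 per sample. The authors deposited 1 intensity per probe set and array, on a linear scale, for 22690 probe sets, 64 of them controls. The software and scaling behind them are not given in the sources used here, and the arrays' trimmed means (2% off each end) ran from 358 to 546, so each array was scaled to 1 common trimmed mean. The deposited intensity values were then taken here as log2(intensity + 32). Probe sets above the 40th percentile on at least 2 arrays were kept (15058), and the brightest probe set with exactly 1 symbol in the platform annotation stood for each gene, which left 9058 genes. The annotation gives 20380 probe sets a single symbol and 691 more than 1 symbol, and it does not list 1555, which stay unnamed here.

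A model with 1 mean per group over all 16 arrays was run in limma 3.58.1 (R 4.3.3; trended empirical Bayes variances, 10 residual degrees of freedom), so the 5 arrays described share the spread of all groups. Tests are two-sided with Benjamini-Hochberg adjustment over all genes of a comparison. The fit was tested on simulated data. Alternatives changed the scaling, the added value, the filter, the rule for probe sets, the variance model, the arrays fitted and the replicate block; those for day 7, for list counts and for single named genes were chosen after seeing the data. Named genes were the 15 largest rises and falls whose groups do not overlap, up to 8 differences each way between genotypes, up to 5 members of a list with the smallest p and others beside its count, and a fixed set of 8 genes. The members, the 56 lists (1231 genes, 83 in more than 1 list, 973 tested) and the rules were chosen with earlier results of these data known. Lists are described by counts and medians, with no set test. Promoter windows are the 250 bases before the start in the first RefSeq entry of a gene, aligned with Biopython 1.88. Plots were made in Python 3.11.15 with matplotlib 3.10.9. Some genes are not analysed here.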

Additional observations from a re-analysis of the deposited data

Results flagged for a closer look

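The results singled out here are genes whose change to day 1 in transgenic skin differed from that in wild-type skin by the test of the difference itself in limma. The difference, transgenic minus wild-type change on the log2 scale, was 1.81 for Tnfrsf12a, 1.65 for Cdr2l, 1.50 for Gm13889 and 1.07 for Mt2. It was 1.04 for Bcl2l1, 1.01 for Prrc2a, 1.00 for Msmo1 and 0.82 for Dtx2. Below 0 it was -1.67 for 6820431F20Rik, -1.60 for Wdfy3, -1.37 for Kdm7a and -1.21 for Ugcg. It was -1.20 for Myhas, -1.14 for Sema3c, -1.12 for Thbs1 and -1.05 for Necab2. The smallest adjusted p of these was that of Kdm7a, 0.0173, and the largest that of Gm13889, 0.0426. Each group had 3 or fewer arrays, and no single array was tested as standing apart.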

How the results depend on the processing

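Each choice was changed alone. In transgenic skin the count of 978 genes stayed within 1.5 times under quantile normalization (990), a smaller added value of 8 (961) or a larger one (996), no filter (819), the stricter filter (936), mean probe sets (1087), no variance trend (916) and single probe sets (1312). It was 186 with no further scaling, where the median of all genes moved to -0.16, and 453 when only the 5 arrays were fitted. Leaving out 1 array gave 233 to 978. The wild-type count of 2029 was 465 with no further scaling, 3162 over single probe sets and 1188 to 1817 without 1 array, the lowest without wild-type day 1 replicate 1. Without wild-type day 0 replicate 2 it was 1226. The 26 differences between genotypes became 7 with no further scaling, 8 with no filter, 15 with no variance trend, 12 with only the 4 groups and 44 over single probe sets. Leaving out 1 array gave 0 to 15. For day 7 against day 1 the count of 4008 was 1892 with no further scaling, 6502 over single probe sets and 3167 to 3792 without 1 array. With the replicate block, the paired fit, the counts were 836, 1959, 4 and 4002. Whether the numbers pair the samples cannot be told from these values. Deviations of same-numbered arrays correlated at 0.036 in transgenic skin and at -0.01 to 0.16 in wild-type skin. In transgenic skin the shared numbers give the same value by construction. Axin2, not past the threshold, ranged from -0.12 to 0.0223 without 1 array, above 0 without transgenic day 1 replicate 2 alone. With no further scaling 66 of 140 named genes past the threshold lost their call. Of the 140, 49 kept their call in all 15 settings and 76 lost it without transgenic day 0 replicate 2. The cause of these shifts was not tested. Depth here is the brightness of a probe set over its background, which the deposited values do not give.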

Other observations

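Over all 15058 kept probe sets, without choosing 1 per gene, limma passed 1312 in transgenic skin at day 1 against day 0, 803 higher and 509 lower, and 95 of these had no single gene symbol and are not named here. Genes past the threshold had 531 further kept probe sets, of which 472 went the same way and 0 passed in the opposite direction. The values of such probe sets are given above for some named genes only. Of 24 genes of ribosome assembly 3 rose (12.5%, against 6.62% of all genes) and 0 fell, and 20 had a change above 0. Of 13 Notch genes 1 fell (7.69%, against 4.17% of all genes). Without 1 array the ribosome count ran from 0 to 2 and the Notch count from 0 to 1. Of 13 tested genes listed as regulated by oestrogen 2 rose (15.4%, against 6.62% of all genes) and 3 fell (23.1%, against 4.17%). With only the 5 arrays fitted 1 of them rose and 0 fell, and with no further scaling 0 rose and 1 fell. Melanocyte markers gave 0 higher and 0 lower of 9 in limma, and smooth muscle markers 0 and 0 of 10.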
